A study of Mus musculus with 6 samples.

Results

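Of the 6 whole-heart libraries of the series, the 3 from cyclin C fl/fl mice are described here: fl/fl 1, fl/fl 2 and fl/fl 3, taken by their titles and genotype labels. The other 3 libraries are not used. Each of the 3 fl/fl libraries came from the heart of a male of the C57Bl6J background at 6 weeks of age. These mice carried both alleles of cyclin C (Ccnc) flanked by loxP sites and no Cre recombinase, so they are a floxed baseline and not wild type. Per the labels, whole hearts were frozen on dry ice, so atria and ventricles were extracted together. Each library can also hold valves, vessels and any tissue left attached. RNA was extracted with Trizol and polyadenylated RNA was sequenced. The level of each gene was given by the authors as FPKM, fragments per kilobase of transcript scaled to the mapped fragments of the library, which is per length and so allows levels of different genes to be set side by side. Where 3 values follow each other without names, they are those of fl/fl 1, fl/fl 2 and fl/fl 3.

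The heart contracts without rest. Its muscle cells are filled with sarcomeres, in which myosin thick filaments pull on actin thin filaments when calcium released from the sarcoplasmic reticulum binds troponin, and with mitochondria, which make ATP mainly from fatty acids. Many of the proteins involved belong to families whose members are used in different muscles or at different ages, so that the choice of isoform marks a tissue as fast or slow, atrial or ventricular, fetal or adult. In the mouse ventricle, the fast alpha myosin heavy chain replaces the slow beta form after birth.

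The summed FPKM was 627934, 769033 and 657910 in the 3 hearts, over 24315 rows. Each heart had between 11815 and 12352 genes of at least 1 FPKM, and 12130 genes had a mean of at least 1 FPKM. A value of 0.01 is the lowest in the files and stood in place of 0. It was given to 7071 rows in all 3 hearts. The rows hold no gene of the mitochondrial chromosome, and the transcripts it encodes are not analysed here. The number of reads is not in the files. From the steps between the lowest values, the authors' scale was estimated to put 19.98 to 22.6 fragments behind 1 FPKM in a transcript of 2 kb. Values under 1 FPKM therefore rest on few fragments.

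The labelled tissue was checked against markers of heart muscle. All 12 genes of a list of ventricular muscle cells were expressed. The lowest was the transcription factor Irx4, at 13.8, 15.8 and 17.4 FPKM, and the highest was Myl2. All 14 genes of an atrial list were expressed too, and their summed level was 6810.2, 4682 and 3945 FPKM. Of 10 liver genes 3 had a mean of at least 1 FPKM. They were Trf at 50.3, 27.9 and 26.1 FPKM, Ahsg at 10.98, 16.7 and 5.5 FPKM and Apoa2 at 0.39, 2.68 and 2.004 FPKM. Albumin, chosen after its values were seen, read 0.0458, 0.01 and 0.01 FPKM. Of 17 skeletal muscle genes 6 had a mean of at least 1 FPKM, led by Ckm, Acta1 and Myl1, of which heart muscle is known to express the first and the second. From the same list the master factor Myod1 was at the lowest value in every heart and the fast myosin heavy chains Myh1, Myh2 and Myh4 were at 0.0429 FPKM or below.

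1 library stood apart. In fl/fl 1, many genes of fat cells, thymocytes, lymphocytes and the mesothelium were several times as high as in the other hearts. Highest there were 14 of 16 fat cell genes and all 11, 12 and 11 genes of the other 3 lists, but not all by a wide margin. Plin4 of the fat cell list read 62.4, 74.9 and 38.02 FPKM. Cd79b of the lymphocyte list read 1.97, 1.06 and 1.42 FPKM and Tbx18 of the mesothelial list 2.11, 1.82 and 1.72 FPKM. The summed level of the 12 lymphocyte genes in the files was 98.3, 5.41 and 5.96 FPKM, that of the 11 thymocyte genes 95.7, 4.09 and 4.36 FPKM and that of the 11 genes of mesothelium and epicardium 57.5, 16.6 and 11.8 FPKM. For the 16 genes of white and brown fat cells it was 2755, 2039 and 1228 FPKM, of which Fabp4, which endothelial cells express as well, held 1800.5, 1807 and 1065 FPKM. Their part in the other values of fl/fl 1 was not tested, and the main counts below are also given without this heart. In whole tissue, fewer cells of a type and less RNA per cell cannot be told apart.

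The most abundant transcripts were those of contraction, oxygen storage and ATP supply. Myl2, which encodes the regulatory light chain of ventricular myosin, ranked first in every heart. Its level was 16100.1, 23769.7 and 20749 FPKM, or 2.94 ± 0.324% (SD, n = 3) of the summed FPKM. Myoglobin (Mb), the oxygen store of muscle, came second at 15902, 20788 and 18482 FPKM, and alpha-tropomyosin (Tpm1), which covers the myosin binding sites of actin, came next at 10102, 12648 and 13502 FPKM. These 3 genes kept their order in all 3 hearts and were the only ones with a mean above 10000 FPKM. The row of Mb overlaps that of Apol6 in the files, so a few of its reads could belong to the neighbour.

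Ranks 4 to 9 were held by the essential light chain Myl3 at 9835 ± 1648 FPKM, cardiac actin Actc1 at 8953 ± 621 FPKM, cardiac troponin I (Tnni3) at 8598 ± 1977 FPKM, cardiac troponin T (Tnnt2) at 8430.2 ± 1516 FPKM, the heart fatty acid binding protein Fabp3 at 8416 ± 1142 FPKM and the adenine nucleotide translocase Slc25a4 at 7512 ± 1644 FPKM (mean ± SD, n = 3). Then followed Cox7a1, a muscle subunit of cytochrome c oxidase, at 3981, 5879.6 and 4109 FPKM and phospholamban (Pln), the brake of the calcium pump, at 4070.4, 4919 and 4805 FPKM. The pump itself, Atp2a2, read 3913, 4712 and 3904 FPKM. Alpha myosin heavy chain (Myh6), the motor, stood only at rank 18 with 3329, 3996 and 3150.3 FPKM, below each of its light chains Myl2 and Myl3.

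Of the 40 most abundant genes, 11 were on the list of respiratory chain complexes II to IV, 8 on that of ATP synthase and 8 on that of thick and thin filaments. Calcium cycling, the energy shuttle and the Z disc had 2 each. Usmg5, which encodes a protein associated with ATP synthase, was counted with complexes II to IV, and Ndufa4, which is named for complex I but is now assigned to cytochrome c oxidase, with complex I. Of the 50 genes of highest mean, 46 were among the first 50 of every heart. By FPKM, whose sum was highest in fl/fl 2, 37 of the 40 plotted genes were highest there, beside 40.1% of all expressed genes. Of the 40, 34 were lowest in fl/fl 1, beside 33.3%. The 2 genes that fall furthest out of this order are telethonin (Tcap), which caps titin at the Z disc, and Nppa, which encodes atrial natriuretic peptide. Tcap read 2865, 3956 and 1693 FPKM and so held rank 21, 21 and 52. Nppa read 3715, 2436 and 1827 FPKM, at rank 15, 42 and 43, so it was the 1 gene of the 40 that was highest in fl/fl 1.

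**Figure D1:**
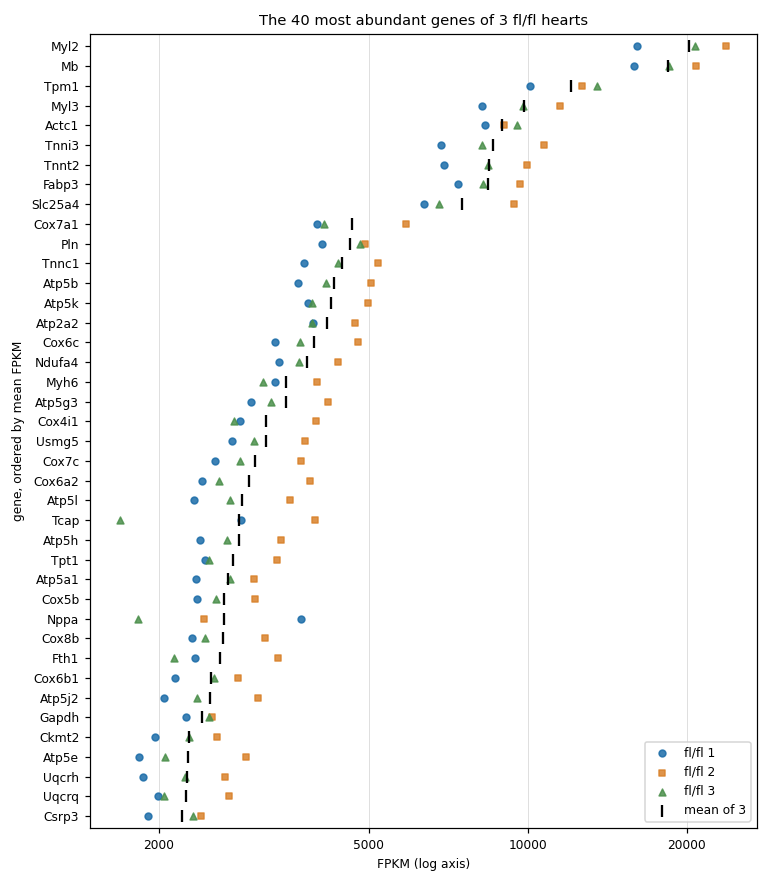
FPKM on a log axis (horizontal) of the 40 genes of highest mean, ordered from the highest at the top; each symbol is 1 heart and the black tick is the mean of the 3. In 37 of the 40 rows fl/fl 2 is the highest heart, beside 40.1% of all expressed genes. The widest rows are those of Tcap, lowest in fl/fl 3 at 1693 FPKM, and Nppa, highest in fl/fl 1 at 3715 FPKM.

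The distribution was steep. The 10 most abundant genes of each heart held 14.4, 16.04 and 16.5% of its summed FPKM, 15.6 ± 1.12% over the 3 hearts (SD, n = 3) and 16.3% without fl/fl 1. Between 157 and 200 genes sufficed for 50% of the total, the highest number in fl/fl 1. Over the means, 95 genes of at least 1000 FPKM held 40.6 ± 1.91% and 860 genes of at least 100 FPKM held 72.9 ± 1.92% (SD, n = 3). The median gene at 1 FPKM or more read 10.1, 10.005 and 9.99 FPKM. The median gene was thus nearly the same in the 3 hearts, while the summed FPKM of fl/fl 2 was 1.22 times that of fl/fl 1.

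Sorted by function, 23 lists with 936 genes held 61.8 ± 1.75% of the summed FPKM (SD, n = 3). The share of an FPKM sum stands for a share of transcript molecules rather than of reads. Each gene was counted in 1 list. Fuel oxidation and ATP supply, which joins the lists of the respiratory chain, ATP synthase, fatty acid uptake and oxidation, the citric acid cycle and the energy shuttle, held 25.3 ± 1.32%. The sum includes proteins that work outside mitochondria, such as Fabp3, Lpl and Ckm. Sarcomere, Z disc and calcium cycling together held 16.03 ± 0.806%, from 15.2, 16.1 and 16.8% in the 3 hearts. The 2 groups did not overlap: the lowest heart of fuel oxidation and ATP supply, at 24.1%, lay above the highest of contraction, at 16.8%. The first joins 6 lists with 188 genes and the second 3 lists with 100 genes, so their order depends on the lists joined. Respiratory chain and ATP synthase alone held 16.2, 18.2 and 16.95%, which overlaps contraction.

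Thick and thin filaments were the largest single list at 11.7 ± 0.792%. The share was 10.9, 11.8 and 12.5% and so lowest in fl/fl 1. All but 1 of its 27 genes were expressed, and 259 FPKM was the median level of the list. The Z disc list, with titin and the M band, came to 2.34 ± 0.0324%. Below Tcap it was led by the muscle LIM protein Csrp3 at 1912, 2406 and 2328 FPKM and alpha B-crystallin (Cryab), a chaperone of desmin and titin, at 1746, 2454 and 1758 FPKM. The row of Cryab overlaps that of Hspb2 in the files. Calcium cycling held 1.97 ± 0.0826%, most of it in Pln, Atp2a2 and the calcium sensor S100a1, which read 1139.8, 1446 and 1209 FPKM.

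Of the energy lists, complexes II to IV held 7.61 ± 0.456%, ATP synthase 5.14 ± 0.348% and complex I 4.39 ± 0.243%. By FPKM, fl/fl 2 was the highest heart for 34 of 37 complex I genes, 31 of 33 expressed genes of complexes II to IV and 18 of 18 ATP synthase genes, against 40.1% of all expressed genes. By share of the summed FPKM, which was highest in fl/fl 2, these counts were 25, 21 and 13, against 13.2% of all expressed genes. The 18 ATP synthase genes were each lowest in fl/fl 1 by FPKM. The median difference of fl/fl 2 from the mean of the other hearts was 0.37 (log2) for ATP synthase and 0.41 for complex I, against 0.02 over all expressed genes. A change of this size is under 2-fold, and with 1 animal per difference it has no replicate. Beta subunit Atp5b, at the catalytic site, was the most abundant of ATP synthase at 3675, 5046 and 4156 FPKM.

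The list of fatty acid use outweighed that of glycolysis by share. Fatty acid uptake and oxidation held 3.61 ± 0.0715% of the summed FPKM, and glycolysis, glycogen and lactate together 1.78 ± 0.0388%, with no overlap of the hearts. In the first list Fabp3 alone held 1.23%, Lpl 0.238% and Fabp4, which endothelial cells and fat cells express, 0.228%. Gapdh, the first gene of the second list, held 0.355%. The size of the difference therefore depends on the genes listed. After Fabp3, the fatty acid list was led by Hadhb, the thiolase of mitochondrial beta-oxidation, at 1482, 1876 and 1637 FPKM and by lipoprotein lipase (Lpl), which frees fatty acids from circulating lipoproteins, at 1438, 1916 and 1545 FPKM. Glyceraldehyde phosphate dehydrogenase (Gapdh) led glycolysis at 2253, 2527 and 2487 FPKM and aldolase A (Aldoa) followed at 1432, 1953 and 1490.0 FPKM. In the citric acid cycle, cytosolic malate dehydrogenase Mdh1, which serves the malate-aspartate shuttle, read 1454, 2011 and 1816 FPKM and its mitochondrial partner Mdh2 1312, 1740.3 and 1357 FPKM. These are levels of RNA and give no flux.

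Oxygen binding held 2.904 ± 0.152%, nearly all of it Mb. The globins of red blood cells were low beside it: beta-globin Hbb-b1 read 635, 819 and 813 FPKM and alpha-globin Hba-a1 585, 817 and 632 FPKM, and near-identical copies make the split within each pair uncertain. Cytosolic ribosomal proteins held 7.26 ± 0.431% and mitochondrial ones 1.03 ± 0.0309%. Of the 86 expressed cytosolic ribosomal genes, 82 were highest in fl/fl 2 by FPKM, beside 40.1% of all expressed genes, and 72 by share, beside 13.2%. Translation factors held 1.47 ± 0.0839%, chaperones 1.09 ± 0.0338% and the proteasome with ubiquitin 0.705 ± 0.00197%. The proteasome share was 0.703, 0.707 and 0.704%, so its highest and lowest heart differed by a factor of 1.01, the narrowest of the 23 lists.

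The remaining lists were small by share. Extracellular matrix held 0.547 ± 0.0673%, led by matrix Gla protein (Mgp), an inhibitor of calcification, at 632, 785 and 572 FPKM and the small proteoglycan decorin (Dcn) at 564, 675 and 645 FPKM. Membrane ion channels and pumps, the genes of the action potential, held 0.292 ± 0.00401%, with the sodium pump regulator Fxyd1 first at 609, 851 and 643 FPKM. Secreted peptides and growth factors varied most, at 0.755, 0.441 and 0.432%, and Nppa alone made most of it in each heart. Cell junctions and costameres held 0.392 ± 0.0475%. There the membrane protein Popdc2 read 275, 309 and 274 FPKM and alpha-catenin Ctnna1 202, 219 and 209 FPKM.

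**Figure D2:**
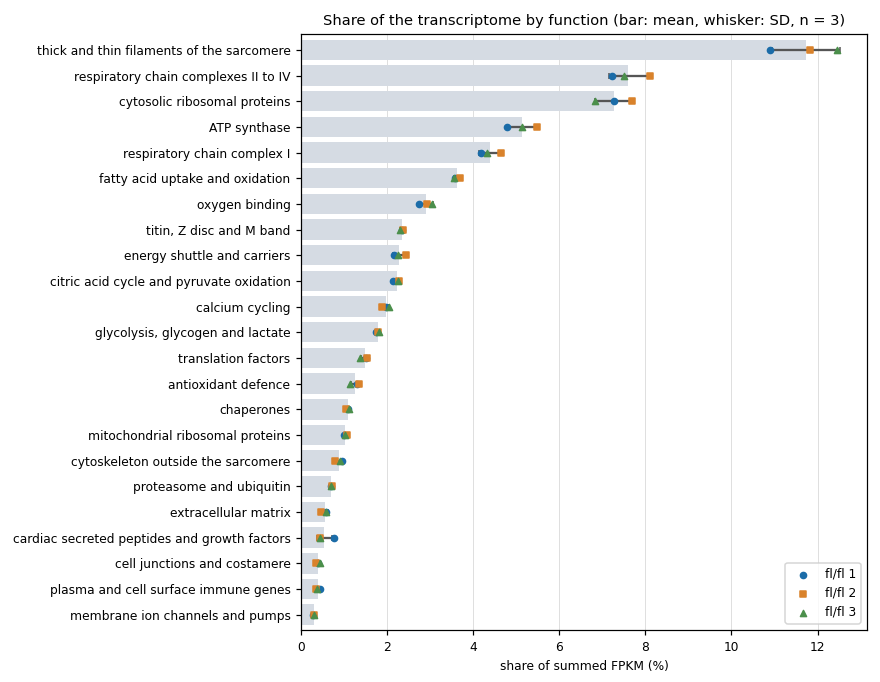
Share of summed FPKM in percent (horizontal, from 0) for 23 lists of genes by function; bars are means, whiskers SD over 3 hearts and symbols single hearts. Thick and thin filaments lead at 11.7 ± 0.792%, and the secreted peptides have the widest spread for their size, with fl/fl 1 at 0.755%.

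Isoform choice was examined in 72 families with 277 members. Of these members 224 had a mean of at least 1 FPKM and 9 were at the lowest value in every heart. The same member led in all 3 hearts in 69 families. In 27 families the leading member was at least 10-fold above the second in every heart, on FPKM + 1, and this count was 30 without fl/fl 1. In 25 families the leading member made at least 90% of the family in every heart. At the other end, 19 families had a leading member less than 2-fold above the second by mean. The 72 families were compared by the ratio within each heart, and no ratio was tested, since an exact sign-flip test over 3 hearts cannot give a two-sided p under 0.25.

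In each troponin family, the tropomyosins and the calsarcins, 1 gene expressed in heart muscle made nearly all of the level. The values are per gene and do not separate splice forms of a gene. Of the troponin I genes the cardiac Tnni3 made 99.9 ± 0.01105% of the family, while the slow skeletal Tnni1, which is the form of the embryonic heart, read 1.74, 1.496 and 1.13 FPKM. Troponin C was almost only the cardiac and slow form Tnnc1, and the fast form Tnnc2 read 0.357, 0.01 and 0.01 FPKM. The cardiac troponin T gene Tnnt2 made 99.8 ± 0.0101% of its family and Tpm1 98.7 ± 0.14004% of the tropomyosins. In the same way the calsarcin Myoz2, an anchor of calcineurin at the Z disc, made 99.98 ± 0.00529% of the calsarcins.

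Among myosin heavy chains, Myh6 made 96.02 ± 1.15% of the family. The slow beta chain Myh7 read 70.9, 19.8 and 74.01 FPKM, or 2.13, 0.496 and 2.35% of the level of Myh6. It was therefore lowest in fl/fl 2, where that percentage was less than in either other heart by a factor of more than 4. The rows of Myh7 and the long non-coding Mhrt overlap in the files, and that of Myh6 holds the microRNA gene Mir208a. Cardiac actin made 92.6 ± 1.203% of the actins, with skeletal actin Acta1 at 244, 139 and 143 FPKM and smooth muscle actin Acta2 at 102, 85.2 and 101 FPKM. These genes share long stretches of sequence, so a small part of their reads may be misassigned.

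The ventricular light chains were above their atrial counterparts in every heart. The atrial regulatory chain Myl7 read 1116, 808 and 682 FPKM, or 6.93, 3.399 and 3.29% of Myl2. The atrial essential chain Myl4 read 790.1, 561 and 702 FPKM, or 9.64, 4.88 and 7.16% of Myl3. Sarcolipin (Sln), the atrial regulator of the calcium pump, read 529.6, 347 and 271 FPKM, or 13.01, 7.06 and 5.64% of Pln. Each of these 3 percentages was highest in fl/fl 1. The atrial thick filament protein Mybphl read 71.4, 44.4 and 36.6 FPKM, beside 907, 1017 and 1081 FPKM of cardiac myosin-binding protein C (Mybpc3). Over the atrial list, 10 of 14 genes were highest in fl/fl 1, as were 28.6% of all expressed genes, and 12 of 14 were lowest in fl/fl 3, as were 33.6% of all, with median differences from the other hearts of 0.36, -0.09 and -0.33 (log2). How much atrium entered each extract was not recorded in the sources used here, and its part in these ratios was not tested.

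The start sites of a few of these genes carry short motifs that are known from muscle promoters. The windows below run from 250 bases before to 50 bases after the gene start in RefSeq on GRCm38.p6 and are printed 5′ to 3′ on the strand of the gene. They are shown because Actc1, Myl3 and Myl7 are a thin filament gene, a ventricular light chain and an atrial light chain whose windows all hold a CArG box, the site of serum response factor. Capitals mark each CArG box and each CATTCC, the core of TEAD sites, on either strand, and no CArG box overlaps a CATTCC in them.
Actc1 at chr2:114052826-114053125 (minus strand): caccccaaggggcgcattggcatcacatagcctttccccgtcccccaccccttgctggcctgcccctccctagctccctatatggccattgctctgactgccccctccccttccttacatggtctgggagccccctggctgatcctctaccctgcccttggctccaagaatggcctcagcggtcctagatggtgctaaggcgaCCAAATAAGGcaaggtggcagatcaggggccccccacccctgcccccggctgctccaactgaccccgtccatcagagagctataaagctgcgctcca
Myl3 at chr9:110763428-110763727 (plus strand): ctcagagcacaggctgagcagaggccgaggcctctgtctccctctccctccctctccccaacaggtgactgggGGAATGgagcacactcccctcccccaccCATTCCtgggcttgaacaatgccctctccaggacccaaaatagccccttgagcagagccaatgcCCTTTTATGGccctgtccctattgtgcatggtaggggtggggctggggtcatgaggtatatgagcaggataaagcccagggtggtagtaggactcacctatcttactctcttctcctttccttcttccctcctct
Myl7 at chr11:5898733-5899032 (minus strand): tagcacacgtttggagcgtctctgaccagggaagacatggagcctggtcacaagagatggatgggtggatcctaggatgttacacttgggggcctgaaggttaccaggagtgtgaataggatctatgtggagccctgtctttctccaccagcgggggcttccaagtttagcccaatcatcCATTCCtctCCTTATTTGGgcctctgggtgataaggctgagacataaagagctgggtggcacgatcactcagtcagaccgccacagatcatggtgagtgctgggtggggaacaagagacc

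Over 17185 rows with a RefSeq window, 1.66% held a CArG box and 15.5% a CATTCC. Among the 26 filament genes with a window, 4 held a CArG box (Acta1, Actc1, Myl3 and Myl7) and 12 a CATTCC. Of the windows above, those of Myl3 and Myl7 hold both motifs. In Myl7 the CATTCC begins at position -70 and the CArG box at position -61, counted from the gene start, so they lie side by side. The motifs were chosen after the counts were seen, a match describes letters in the window and not a bound site, and the 3 levels of expression differ although the motif is shared.

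In calcium handling, the families of the pump, the release channel and calsequestrin were each led widely by 1 gene. The pump Atp2a2 made 99.8 ± 0.0905% of its family and the release channel Ryr2 99.7 ± 0.0888%, at 117, 105 and 119.6 FPKM. Calsequestrin 2 (Casq2), the calcium store of the reticulum, read 420.1, 422 and 707 FPKM and its skeletal relative Casq1 20.4, 23.4 and 50.5 FPKM, so both were highest in fl/fl 3 and Casq2 still made 94.5 ± 1.04% of the pair. Other families were less one-sided. Pln made 92.2 ± 3.26% of its pair with Sln, Calm2 47.4 ± 1.91% of the calmodulins and Camk2d 47.2 ± 3.04% of calmodulin kinase II (SD, n = 3). At the plasma membrane the choice was also less strict than for the pump. The L-type channel pore Cacna1c read 22.4, 25.3 and 23.8 FPKM and the T-type pore Cacna1g 4.31, 5.42 and 7.84 FPKM.

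Receptors of the autonomic nerves were low beside the main gap junction gene. The beta adrenergic receptor Adrb1, through which noradrenaline raises rate and force, read 9.77, 12.4 and 13.7 FPKM. Adrb3, which fat cells carry, read 3.63, 0.0366 and 0.108 FPKM and so was highest in fl/fl 1, the heart with the fat cell genes. The muscarinic receptor Chrm2, which slows the heart, made 98.7 ± 0.591% of its family. Of the connexins, Gja1, the main gap junction protein of the ventricle, read 156, 155 and 293 FPKM and was highest in fl/fl 3. Gja5, the connexin of atrium and conduction system, read 5.51, 5.097 and 7.44 FPKM.

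Enzyme families split into muscle forms that dominated and pairs that were both used. Muscle isoforms led by a wide margin for enolase, where Eno3 made 92.9 ± 1.05%, for phosphoglycerate mutase, where Pgam2 made 92.6 ± 0.789%, for phosphofructokinase, where Pfkm made 89.04 ± 0.805%, and for the mitochondrial carnitine gate, where Cpt1b made 92.6 ± 0.891%. The insulin-responsive glucose transporter Slc2a4 read 211, 282 and 173 FPKM and the general transporter Slc2a1 5.28, 8.09 and 5.39 FPKM. Lactate dehydrogenase was mainly the heart form Ldhb at 1261, 1899 and 1415 FPKM, with the muscle form Ldha at 487, 615 and 586 FPKM, or 38.6, 32.4 and 41.4% of Ldhb. Mitochondrial creatine kinase Ckmt2 and cytosolic Ckm, the 2 ends of the phosphocreatine shuttle, read 1971, 2585 and 2285 and 1605, 2179 and 1778 FPKM. Their ranges overlapped between hearts, but Ckmt2 was above Ckm within each heart, at 0.30 ± 0.06 (log2 ratio ± SD, n = 3).

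Cytochrome c oxidase showed the muscle subunits beside their general forms. The heart and muscle genes Cox6a2, Cox7a1 and Cox8b made 91.5 ± 1.51%, 81.02 ± 0.941% and 84.98 ± 1.33% of their families, while the general forms Cox6a1, Cox7a2 and Cox8a still read 267 ± 19.1, 703 ± 140.2 and 463 ± 29.7 FPKM (mean ± SD, n = 3). For subunits without a muscle form, the general gene held nearly all, as for Cox4i1 over the lung form Cox4i2 at 99.4 ± 0.05195%. In the families led by Cox6a2, Cox7a1 and Cox8b, each heart had the muscle gene more than 5-fold above the general one.

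Pairs near balance included genes that change between the young and the adult heart. Elongation factor Eef1a1, the general form, read 989, 944 and 681 FPKM and Eef1a2, the form that replaces it in adult muscle, 684, 934 and 633 FPKM, and Eef1a1 stood at 145, 101 and 107% of Eef1a2. Rpl3l, the striated muscle form of ribosomal protein L3, read 216, 336 and 223 FPKM and the general Rpl3 153, 189 and 166 FPKM. Rpl3l was thus the higher of the pair in each heart. The pyruvate dehydrogenase kinases, which close the entry of pyruvate to the citric acid cycle, had no fixed order: Pdk2 read 199.8, 264 and 165 FPKM and Pdk4, the form that fasting raises, 155, 159 and 191 FPKM, so Pdk4 passed Pdk2 only in fl/fl 3. The other families with no constant leader were the muscle ring finger ligases Trim63, at 133, 155 and 187 FPKM, with Trim54, at 149, 207 and 90.9 FPKM, and the fatty acid sensing receptors Ppara, at 13.9, 15.7 and 13.03 FPKM, with Ppard, at 15.1, 14.4 and 13.05 FPKM.

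Transcription factors were expressed at lower levels than the structural genes. Of a list of 45 factors of the heart 39 had a mean of at least 1 FPKM, and Hand1 was at the lowest value in every heart. The list was led by the stress factor Nfe2l1 at 148, 165 and 152 FPKM, the hypoxia factor Epas1 at 96.7, 102 and 76.5 FPKM and the mitochondrial regulator Esrra at 76.5, 108 and 86.7 FPKM. The cardiac factor Nkx2-5 read 47.2, 60.2 and 49.97 FPKM. Gata4 led its family at 32.3, 39.3 and 46.6 FPKM with Gata6 at 23.8, 30.6 and 28.8 FPKM, and Mef2a led Mef2d and Mef2c, at 52.3, 55.04 and 62.6, 37.6, 36.9 and 32.9 and 16.1, 15.1 and 17.7 FPKM. Thyroid hormone receptor alpha (Thra) made 87.1 ± 0.959% of its pair.

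**Figure D3:**
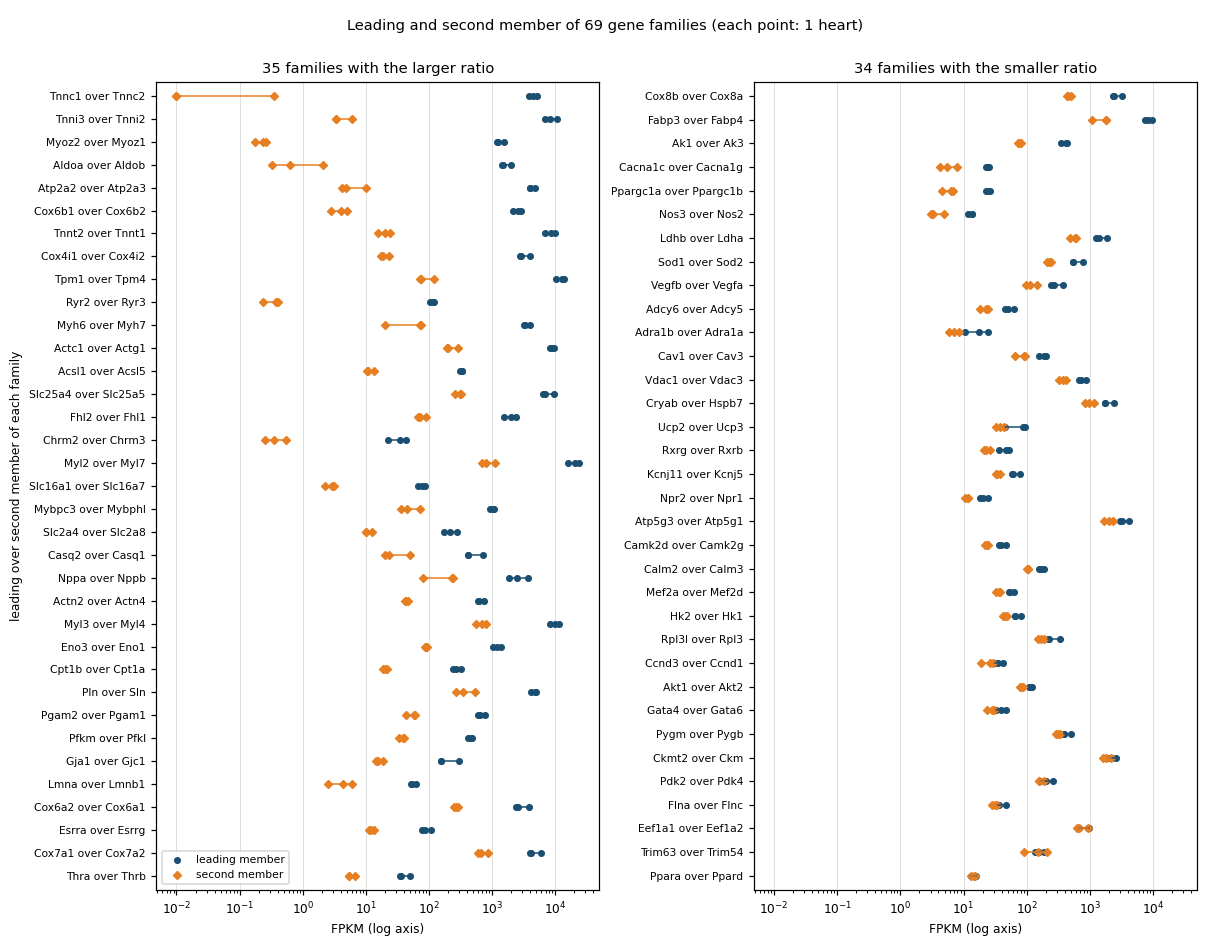
FPKM on a log axis (horizontal) of the leading and the second member of 69 of the 72 families, ordered by the ratio of the pair, with 35 families in the left panel and 34 in the right; each symbol is 1 heart and the line joins the lowest and the highest heart. Troponin C and troponin I stand at the top left, since the order is by the ratio on FPKM + 1. By mean FPKM, Myoz2 lies 5994-fold above Myoz1 and Tnni3 2017-fold above Tnni2. At the bottom right the symbols of Eef1a1 with Eef1a2, Trim63 with Trim54 and Ppara with Ppard overlap.

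Cells other than muscle were visible in all hearts. Endothelial genes included the adhesion molecule Pecam1 at 81.3, 73.02 and 70.8 FPKM and the water channel Aqp1 at 272, 258 and 197 FPKM. The summed level of the 18 endothelial genes was 2691, 2675 and 1879 FPKM and of these Fabp4 held the larger part. Fibroblast genes summed to 1924, 2176 and 2001 FPKM, with collagen III (Col3a1) at 98.3, 57.3 and 125 FPKM and dermatopontin (Dpt) at 102, 120.2 and 114 FPKM. Macrophage genes summed to 517, 448 and 522 FPKM, with the complement genes C1qa at 77.999, 80.7 and 79.8 FPKM and C1qb at 64.6, 57.3 and 76.9 FPKM. Smooth muscle and pericyte genes summed to 1111, 1304 and 1031 FPKM, of which the intermediate filament desmin (Des), which heart muscle also expresses, held 592, 818 and 535 FPKM. For these 4 lists the median differences of single hearts from the others were small, and the largest was -0.26 (log2), for macrophage genes in fl/fl 2. The 12 conduction system genes summed to 32.5, 39.96 and 49.4 FPKM, and 7 of them were expressed. Irx3 led at 11.5, 20.05 and 21.5 FPKM. The pacemaker channel Hcn4 read 2.63, 2.53 and 4.65 FPKM and Tbx3, a repressor of the working muscle program, 2.598, 4.43 and 3.77 FPKM. Of the 7, 5 were highest in fl/fl 3, beside 31.3% of all expressed genes, with a median difference there of 0.47 (log2).

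The hearts were close for most genes. The highest heart exceeded the lowest by a median factor of 1.25 on FPKM + 1, over 12130 genes with a mean of at least 1 FPKM, and the median coefficient of variation was 13.4%. It was 20.1% for genes of 1 to 5 FPKM and 10.8% for those of 20 to 100 FPKM. A range of at least 2-fold was found for 547 genes, or 4.51%. Between fl/fl 2 and fl/fl 3 alone, leaving fl/fl 1 out, 225 of the genes expressed in those hearts had such a range. Leaving out fl/fl 2 gave 364 and leaving out fl/fl 3 gave 312, and a range over fewer hearts is smaller by its construction. Across genes the hearts correlated with Pearson r of 0.976 for fl/fl 2 with fl/fl 1, 0.973 for fl/fl 3 with fl/fl 1 and 0.982 for fl/fl 3 with fl/fl 2, over 12130 genes, which are not independent replicates.

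The steadiest abundant genes belonged to several compartments of the cell. Of 842 genes with a mean of at least 100 FPKM, leaving out predicted genes, small non-coding RNA and rows without a symbol, the 10 with the smallest SD of log2(FPKM + 1) had SDs of at most 0.0377, against a median of 0.202. They were Gfm1, Ctsb, Trim72, Cd151, Cdc42, Gnai2, Ssr3, Fblim1, Ptrf and Psmc6. Gfm1, the elongation factor of mitochondrial ribosomes, read 101, 101 and 99.7 FPKM. Cathepsin B (Ctsb), a lysosomal protease, read 135, 133 and 135 FPKM, and Trim72, a membrane repair protein of striated muscle, 168, 169.9 and 171 FPKM. They were picked for their small spread among 842, so the SDs describe these 3 hearts.

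In fl/fl 1, 155 genes, or 1.28% of those expressed, were at least 2-fold above both other hearts. The counts were 13 (0.107%) in fl/fl 2 and 29 (0.239%) in fl/fl 3. A mean of at least 1 FPKM can be reached through 1 high heart alone, which favours counts above over counts below. The same holds for the mean of at least 5 FPKM asked of the genes named as furthest above. Of the 10 genes furthest above in fl/fl 1, 6 are known from fat cells and 4 from T cells and their precursors. Carbonic anhydrase 3 (Car3) read 218, 6.62 and 6.496 FPKM, adipsin (Cfd) 295, 10.95 and 8.24 FPKM and adiponectin (Adipoq) 56.4, 3.16 and 1.28 FPKM. Ucp1, the uncoupling protein of brown fat, read 18.1, 0.198 and 0.01 FPKM, the lipid droplet gene Cidec 35.1, 1.53 and 0.863 FPKM and Pck1, an enzyme of glycerol synthesis in fat cells, 29.3, 0.433 and 0.502 FPKM. In fl/fl 1 these 6 genes lay between 18.1 and 295 FPKM, and elsewhere none exceeded 10.95 FPKM.

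The T cell genes had the same pattern. Terminal transferase (Dntt), which adds bases when T cell receptor genes are joined in the thymus, read 15.2, 0.102 and 0.01 FPKM. The recombinase Rag1 read 14.6, 0.01 and 0.01 FPKM, the factor Tcf7 24.6, 0.752 and 0.369 FPKM, the kinase Lck 18.3, 0.298 and 0.499 FPKM and the coreceptor chain Cd8b1 17.1, 0.01 and 0.618 FPKM. In fl/fl 2 and fl/fl 3 none of these 5 genes exceeded 0.752 FPKM. All 11 thymocyte genes and all 12 lymphocyte genes were highest in fl/fl 1, beside 28.6% of all expressed genes, among them Cd4 and Cd8a, which are on both lists. Of the mesothelial list, the keratins Krt18 and Krt8 read 13.5, 0.958 and 0.627 and 9.22, 0.594 and 0.117 FPKM and all 11 genes were highest in fl/fl 1. The proliferation list had a median difference over its 14 genes of 0.77 (log2) in fl/fl 1, -0.83 in fl/fl 2 and 0.10 in fl/fl 3. Of its 10 expressed genes, 7 were highest in fl/fl 1, beside 28.6% of all, and 8 were lowest in fl/fl 2, beside 33.1%. Ribonucleotide reductase Rrm2 read 5.92, 1.35 and 2.36 FPKM and topoisomerase Top2a 5.58, 0.302 and 2.35 FPKM. Cenpa, the most abundant gene of the list, was instead highest in fl/fl 2, at 29.9, 35.4 and 26.9 FPKM. Ccna2 was highest in fl/fl 3, at 3.38, 0.909 and 4.43 FPKM. At least 2-fold below both other hearts in fl/fl 1 were 10 genes, or 0.0824% of those expressed. Furthest down after Amd1, whose reads cannot be told from those of its copy Amd2, was the cytokine Il15 at 4.51, 24.7 and 29.4 FPKM.

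**Figure D4:**
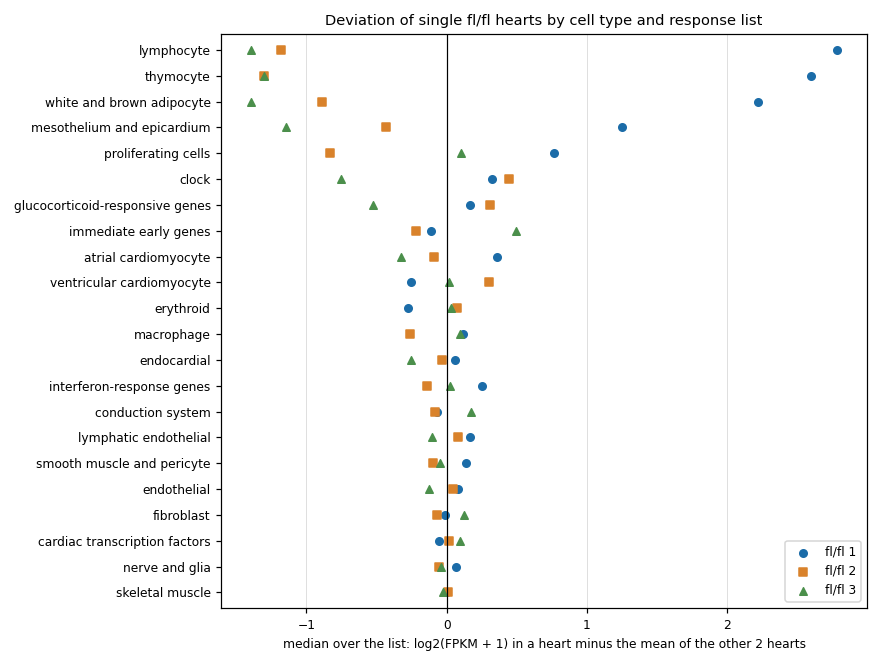
Median over a list of log2(FPKM + 1) in a heart minus the mean of the other hearts (horizontal), over every gene of the list in the files, for 22 cell type and response lists with at least 5 expressed genes, ordered by the largest deviation; each symbol is 1 heart. The lymphocyte, fat cell and thymocyte lists stand out for fl/fl 1 at 2.79, 2.22 and 2.60, while no heart exceeds a size of 0.13 for endothelium and fibroblasts and the ventricular list lies at -0.25, 0.30 and 0.02.

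In fl/fl 2, 25 genes, or 0.206% of those expressed, were at least 2-fold below both other hearts. Myh7, given above, was furthest down. Brain natriuretic peptide (Nppb), which stretch of the ventricle raises, read 239.7, 81.7 and 234 FPKM, a percentage of Nppa of 6.45, 3.35 and 12.8%. The starch-binding protein Stbd1, which tethers glycogen, read 8.13, 2.08 and 7.81 FPKM, the nuclear long non-coding RNA Malat1 126, 48.3 and 145 FPKM and the immediate early factor Egr1 7.98, 2.97 and 14.6 FPKM. Nppa and Nppb did not move in parallel, since Nppa was intermediate in fl/fl 2. Of the genes above both others, Hba-a2 read 0.0441, 52.8 and 0.0465 FPKM, but Hba-a1, its near-identical copy, read 585, 817 and 632 FPKM, so reads could be split unevenly between the copies. Club cell secretoglobin Scgb1a1, a marker of airways, read 3.06, 14.7 and 0.01 FPKM, whereas the retinol-binding protein Rbp7 of capillary endothelium read 33.6, 89.4 and 44.3 FPKM.

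In fl/fl 3, genes of the circadian clock differed from both other hearts. The clock list had a median difference of -0.75 (log2) in fl/fl 3, against 0.32 in fl/fl 1 and 0.45 in fl/fl 2, and 13 of its 19 genes were lowest in fl/fl 3, beside 33.6% of all expressed genes. The output factor Dbp read 111, 125 and 22.8 FPKM, its relative Tef 89.6, 113 and 32.4 FPKM, the repressors Per2 10.1, 10.6 and 1.66 FPKM and Ciart 17.998, 16.5 and 2.99 FPKM, and the nuclear receptor Nr1d2 63.3, 66.4 and 38.1 FPKM. In all of these fl/fl 1 and fl/fl 2 lay close together. The 3 genes that were highest in fl/fl 3 were those of the activator side of the loop: Arntl at 1.36, 0.526 and 8.84 FPKM, Clock at 5.84, 4.78 and 12.3 FPKM and Npas2 at 0.6101, 0.833 and 2.22 FPKM, which were named after their values were seen. Their direction was opposite to that of the Per genes and Dbp. The sources used here do not give the hour at which each heart was taken, and its part in this pattern was not tested.

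2 of the clock genes that were low in fl/fl 3 carry repeated motifs of the loop near their start. The windows are from RefSeq on GRCm38.p6, from 250 bases before to 50 after the start, and are shown because the E box CACGTG is the site of the Clock and Arntl pair and TTATGTAA the D box of Dbp, Tef and Hlf. Capitals mark the CACGTG in Ciart and the TTATGTAA in Per3.
Ciart at chr3:95882179-95882478 (minus strand): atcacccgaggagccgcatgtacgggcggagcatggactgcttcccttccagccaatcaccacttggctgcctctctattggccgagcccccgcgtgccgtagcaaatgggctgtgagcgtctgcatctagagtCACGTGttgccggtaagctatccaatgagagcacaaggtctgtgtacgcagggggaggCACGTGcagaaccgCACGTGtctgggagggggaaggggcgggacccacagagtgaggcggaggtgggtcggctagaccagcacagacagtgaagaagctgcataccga
Per3 at chr4:151044616-151044915 (minus strand): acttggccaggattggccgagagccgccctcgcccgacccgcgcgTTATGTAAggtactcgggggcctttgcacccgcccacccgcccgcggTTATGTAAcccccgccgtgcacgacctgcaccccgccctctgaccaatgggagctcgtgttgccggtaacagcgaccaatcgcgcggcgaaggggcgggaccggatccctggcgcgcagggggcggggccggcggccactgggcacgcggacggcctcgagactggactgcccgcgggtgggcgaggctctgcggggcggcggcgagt

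The window of Ciart holds 3 copies of CACGTG, which begin at positions -116, -58 and -44 from the start. That of Per3 holds TTATGTAA at positions -205 and -158. CACGTG was found in 5 of the 16 clock genes with a window (Bhlhe41, Ciart, Cry1, Per1 and Tef) and in 9.19% of all windows, and TTATGTAA in 1 of 16 and in 1.04%. Both were searched on both strands, and Per3 was picked after its window was seen. Per3 itself read 15.2, 15.1 and 4.45 FPKM and was lowest in fl/fl 3, as Ciart was. The factors that bind these motifs were not measured as proteins, and a match is no evidence of binding.

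Many genes that answer to glucocorticoids and early stimuli also differed in fl/fl 3. The factor Zbtb16 read 22.5, 29.9 and 2.48 FPKM, furthest below both other hearts, and the metallothionein Mt1 350.1, 474 and 157 FPKM. The glucocorticoid list, which shares Per1 with the clock list, had median differences of 0.16, 0.31 and -0.52 (log2). Of its 14 genes 9 were lowest in fl/fl 3, beside 33.6% of all expressed genes. There, 4 were highest (Pdk4, Errfi1, Angptl4 and Cdkn1a), beside 31.3% of all. Immediate early genes went the other way, with a median difference over 21 genes of 0.50 in fl/fl 3 and 12 of 17 expressed genes highest there, beside 31.3% of all. The nuclear receptor Nr4a1 read 6.88, 6.22 and 18.7 FPKM, and the phosphatase Dusp1 29.8, 32.4 and 60.5 FPKM. In fl/fl 3, 29 genes (0.239% of those expressed) were at least 2-fold above and 69 (0.569%) at least 2-fold below both other hearts. The furthest above was the magnesium transporter Slc41a3 at 12.3, 12.2 and 42.2 FPKM, and the stretch-responsive ankyrin repeat gene Ankrd23 read 146, 130.3 and 353 FPKM. Further down, Ptgds, the prostaglandin D synthase, read 513, 489.5 and 137 FPKM.

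**Figure D5:**
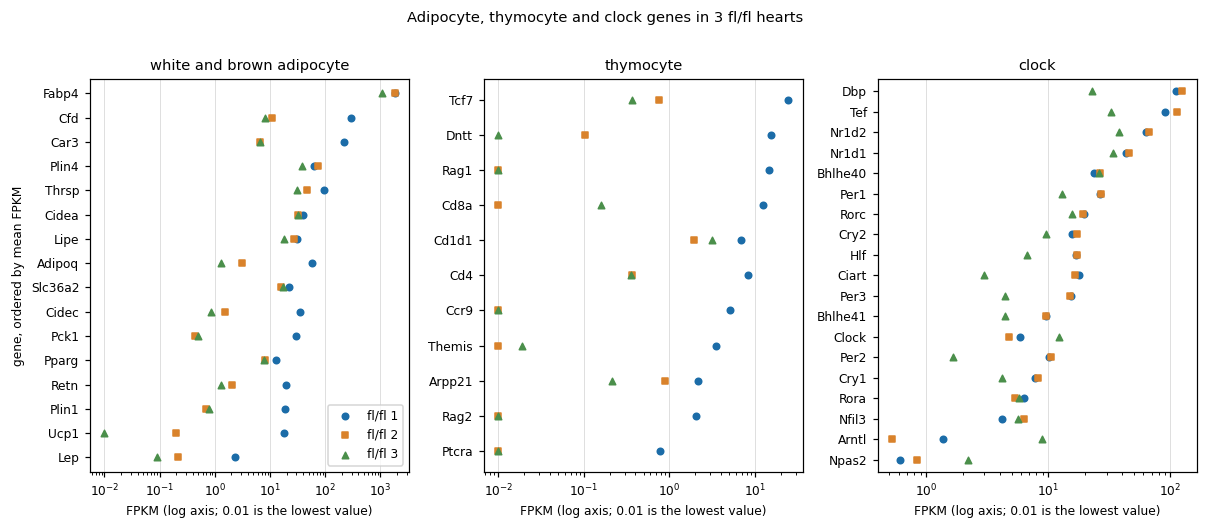
FPKM on a log axis (horizontal) of every gene in the files from the fat cell, thymocyte and clock lists, ordered by mean within each panel; each symbol is 1 heart and 0.01 is the lowest value of the files. All 11 thymocyte genes and 14 of 16 fat cell genes are highest in fl/fl 1, and 13 of 19 clock genes are lowest in fl/fl 3, with Arntl, Clock and Npas2 highest there.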

How the data were processed

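Libraries were made from 1 ug of total RNA of each frozen whole heart with a TruSeq kit, per the labels' protocols. TopHat (version 1.0.0) served for alignment and Cufflinks and Cuffdiff for expression, per the submitters' processing notes. FPKM per gene and library were deposited by the authors, beside a group FPKM that lay within 1% of the mean of the 3 fl/fl values for 99.9% of 12130 genes. The design text calls the libraries stranded, the kit named in the labels does not mark strand, and how strand was treated in counting is not stated there. In the files 5444 rows overlap another row, so their reads may be shared. 27 rows whose names had been turned into dates were kept without a symbol. The submitters name mm10, but of 23258 rows with a symbol in GENCODE M21 only 2978 overlapped that gene there, so no coordinates of the files are printed.

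Nothing was rescaled. Shares are of each heart's summed FPKM, and ratios and differences are on log2(FPKM + 1), which understates those of low genes. Genes with a mean of at least 1 FPKM are called expressed. The depth was estimated from the lowest step in the values of 109 to 136 genes with 1 GENCODE transcript of over 3000 bases. Between 24 and 36 of these genes lay at the step and gave the estimate. With 1 group of 3 animals there is no contrast, and no test was made.

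The gene lists, families and the rule for named genes were chosen with earlier results of these data known. The rule took the 40 genes of highest mean, the members of the families, the 3 highest genes of each function list, for each heart the 10 genes of at least 5 FPKM furthest above and below both others, the 5 highest genes of each cell type list with those at the lowest value, and the 10 steadiest genes of at least 100 FPKM. A few others, such as Rag1 with the T cell genes, Top2a and Adrb3, follow the lists and families they belong to, and a few genes and the plot of 3 families are not reported here. The statistics were tested on simulated data with Python 3.11.15, pandas 2.3.3, numpy 2.4.6 and scipy 1.17.1, and figures were drawn with matplotlib 3.10.9. Alternatives covered the FPKM threshold, the pseudocount, the scaling, the rows counted and each heart left out.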

Additional observations from a re-analysis of the deposited data

How the results depend on the processing

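The number of genes with a 2-fold range between hearts depended on the settings. It was 547, and it became 942 with a pseudocount of 0.1, 146 with a pseudocount of 5 and 232 for genes with a mean of at least 5 FPKM, while scaling by median ratios gave 544 and no filter 704. With each heart left out it ran from 225 to 364. The number of expressed genes ran from 8517 to 17244 over the thresholds and from 11929 to 12242 with each heart left out. The share of the 10 most abundant genes stayed between 15.2% and 16.3%, and that of all function lists between 61.0% and 62.9%. Families with a leading member at least 10-fold ahead numbered 24 to 30, and lists with a median deviation of at least 1 numbered 3 to 5. The medians themselves depended on the pseudocount: of 16 with a size of at least 0.5, a pseudocount of 0.1 moved 12 by 0.2 or more and a pseudocount of 5 moved 14. The lymphocyte median of fl/fl 1 over expressed genes was 5.24 and 1.496 with these, against 3.25, and the clock median of fl/fl 3 was -0.76 and -0.55, against -0.75. Counting every list member in the files, an alternative added after the data were seen and used for the plot of list medians, moved 5 of the 16. Leaving out rows that overlap another row moved the shares of 18 of 23 lists by more than their SD. Genes under 1 FPKM rest on few fragments, and spread estimated from 3 animals is itself uncertain. No paired analysis was possible because the 3 hearts form 1 group and no contrast was tested.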

Other observations

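Genes outside the 23 function lists held 38.2 ± 1.75% of the summed FPKM (SD, n = 3). The most abundant of them, named after their values were seen, was Ech1, an auxiliary enzyme of fatty acid oxidation, at 1589.5, 2335 and 1608 FPKM. Next came the protease inhibitor cystatin C (Cst3) at 1203, 1425 and 1357 FPKM, which stayed within a narrower range than Ech1. Basigin (Bsg), the chaperone of monocarboxylate transporters, read 978, 1277 and 937 FPKM, and its partner Slc16a1, which carries lactate, 66.5, 78.01 and 86.7 FPKM. The ketone body enzyme Oxct1 read 563, 677 and 707 FPKM, and the mitochondrial protein Chchd10 891, 1172 and 818 FPKM. Hopx, a regulator of cardiac growth that lung epithelium also expresses, read 416, 486 and 506 FPKM. Of the lung list it alone was abundant, and the surfactant gene Sftpc read 0.7203, 3.39 and 0.01 FPKM.

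Several genes of high level varied more than their neighbours in rank. Among genes with a mean of at least 100 FPKM, the widest after Cfd and Ptgds was Herpud1, a gene of protein quality control in the endoplasmic reticulum, at 159, 281 and 77.9 FPKM. Glutamine synthetase (Glul) read 214, 266 and 103 FPKM, the matrix protease inhibitor Timp3 152, 148 and 64.8 FPKM and the endothelial surface gene Ly6c1 208, 319.8 and 134 FPKM. Each of these 4 was lowest in fl/fl 3, while among the 10 widest Nppb and Malat1 were lowest in fl/fl 2 and Ankrd23 was highest in fl/fl 3. They were picked for their spread in these 3 hearts, and a single animal per value gives no replicate. Rows of small non-coding RNA held 0.157, 0.0098998 and 0.00892% of the summed FPKM, highest in fl/fl 1, although the libraries were made from polyadenylated RNA.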
